A study of Mus musculus with 67 samples.

Results

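The genes described here are those of vesicle traffic and its small GTPases: the Rab and Arf/Arl GTPases with their regulators, the Vps genes, sorting nexins, syntaxins, Vamp and synaptotagmin genes, the COPI and COPII coats, the Sec translocon, the AP-1, AP-2 and AP-3 adaptors and the V-ATPase. They were taken by symbol, as features whose single gene symbol began with Rab, Arf, Arl, Vps, Snx, Stx, Vamp, Syt, Cop (followed by a, b, e, g or z), Sec, Ap1, Ap2, Ap3 or Atp6v. This gave 109 of the 8448 features of the array, which stood for 100 of 4209 named genes. The rule used symbols alone, and was set with earlier results of these data known.

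RNA of the striatum was hybridised to nylon cDNA filters from 67 C57BL/6 mice, 1 filter a mouse, to ask how age, sex and caloric restriction relate to gene expression in this brain region. Mice fed ad libitum (AL) were juvenile (10 mice, 17 to 44 days old), young (10, 169 to 194 days), middle-aged (10, 476 to 499 days) or old (10, 704 to 743 days), with 5 males and 5 females at each age. Calorically restricted mice (CR) were young (4 males and 5 females, 174 to 194 days), middle-aged (5 and 5, 472 to 499 days) or old (3 males and 5 females, 673 to 743 days); their feed was stepped down from 13 weeks of age to 60% of a fortified feed, against 100% regular feed in AL mice. Among old males, the 3 CR mice were aged 673 days and the 5 AL mice 714 to 743 days, and this difference in age cannot be told apart from diet. Each value is a Z score, the log signal of a feature relative to the mean and SD of all features of its filter, so differences are in SD units of a filter and are not folds, and levels of different genes are not comparable.

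Vesicles carry proteins and lipids between the endoplasmic reticulum, Golgi, endosomes, lysosomes and plasma membrane. Coats (COPI, COPII, AP complexes) bud them, Rab and Arf GTPases direct them, tethers such as the Vps complexes HOPS and CORVET capture them, and SNAREs (syntaxins and Vamps) fuse them. The V-ATPase pumps protons into endosomes, lysosomes and synaptic vesicles. In striatal neurons these steps serve transmitter release, receptor recycling and the clearance of cargo along long processes.

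Of the 100 genes, 58 had a mean score above 0 over the 57 adult mice and were tested in the adult comparisons; 57 passed the same filter in each comparison with juveniles. The filter removed 42 genes, with mean scores from -2.60 (Snx14) to -0.0182 (Stxbp2), and left genes from 0.00579 (Sec61a2) to 1.89 (Sec23ip). Among the tested were 10 of 20 Rab GTPases, 4 of 6 Rab-like genes and Rab regulators, 1 of 5 Arf and Arl GTPases (Arl1), 5 of 5 Arf regulators and effectors, 12 of 18 Vps genes, 5 of 12 sorting nexins and 4 of 7 syntaxins and syntaxin-binding genes. Both synaptotagmin-type genes (Syt11, Sytl4), 3 of 4 COPI genes, 2 of 6 COPII and Sec22 genes, 3 of 3 Sec translocon genes, 2 of 5 AP adaptors and 5 of 6 V-ATPase genes were tested; Vamp8, the single Vamp gene found, was not. Vps72 was taken in by its symbol although its product is known as a subunit of a chromatin-remodelling complex.

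Columns of 2 old AL mice ran in the opposite row order, with correlations of 0.135 and 0.132 with the median profile as deposited, and were turned end to end before use. Another 8 arrays, spread over the 7 groups defined by age and diet, correlated with the median profile at 0.925 to 0.946, against 0.976 to 0.995 for the other 59, and several of the single-gene tests are given with and without them. Ppp1r1b, which encodes the striatal phosphoprotein DARPP-32, had a mean score of 0.509 in adults, and 3 of the 17 striatal neuron markers listed were on the array with a single symbol. In this bulk tissue fewer cells of a type and less RNA per cell cannot be told apart.

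The RefSeq promoter windows (GRCm38.p6, 250 bases before to 50 after an annotated start) covered 85 of the 100 genes and are shown because they held a feature that the choice by symbol did not use. The palindrome CACGTG, the core of the E-box read by bHLH factors such as TFEB and USF, was in the windows of 16 of the 85 genes (18.8%), against 442 of 3435 genes of the array with a window (12.9%) and 8.09% of all 27025 genes. The longer palindrome TCACGTGA, which contains it, was in 9 of the 85 (10.6%), against 83 of the 3435 (2.42%) and 1.12% of all genes. Both motifs read the same on either strand. GC content was alike in the windows of the genes described and of the array, with medians of 60.8% and 61.0%. The 9 genes were 3 of the 12 Vps genes with a window (Vps16, Vps26a and Vps33a), Atp6v0d1, Atp6v1a, Rab5a, Sec23ip, Sec62 and Arl2. A match is a match of letters and no measure of binding.

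The windows of 5 of these genes are printed 5′ to 3′ on the strand of the gene, with the E-boxes in capitals: subunits d of the V0 and A of the V1 part of the proton pump, a pair of core genes of HOPS and CORVET, and the early endosome GTPase Rab5a.
Atp6v0d1 (GRCm38.p6, chr8:105566015-105566314, minus strand, motif from base 247 of the window): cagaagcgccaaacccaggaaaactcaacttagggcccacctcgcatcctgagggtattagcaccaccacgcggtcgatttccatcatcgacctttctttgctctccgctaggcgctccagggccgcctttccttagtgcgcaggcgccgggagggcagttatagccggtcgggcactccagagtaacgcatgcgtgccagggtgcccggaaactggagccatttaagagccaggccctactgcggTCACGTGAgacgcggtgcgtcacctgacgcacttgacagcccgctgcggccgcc
Atp6v1a (GRCm38.p6, chr16:44139210-44139509, minus strand, motif from base 119): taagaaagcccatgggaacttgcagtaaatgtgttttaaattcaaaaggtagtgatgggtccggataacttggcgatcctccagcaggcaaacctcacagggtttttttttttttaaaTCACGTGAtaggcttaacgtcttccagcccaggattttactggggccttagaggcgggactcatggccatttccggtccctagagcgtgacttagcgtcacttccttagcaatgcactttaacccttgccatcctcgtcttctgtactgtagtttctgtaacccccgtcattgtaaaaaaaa
Vps16 (GRCm38.p6, chr2:130424070-130424369, plus strand, motif from base 232): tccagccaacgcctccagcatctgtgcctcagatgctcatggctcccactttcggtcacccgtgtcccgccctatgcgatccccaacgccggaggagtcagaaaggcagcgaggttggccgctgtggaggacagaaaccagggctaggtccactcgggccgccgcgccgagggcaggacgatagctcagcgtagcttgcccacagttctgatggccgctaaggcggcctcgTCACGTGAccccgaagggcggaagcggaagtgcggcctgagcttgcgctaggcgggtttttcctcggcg
Vps33a (GRCm38.p6, chr5:123572966-123573265, minus strand, first of 2 motifs from base 222): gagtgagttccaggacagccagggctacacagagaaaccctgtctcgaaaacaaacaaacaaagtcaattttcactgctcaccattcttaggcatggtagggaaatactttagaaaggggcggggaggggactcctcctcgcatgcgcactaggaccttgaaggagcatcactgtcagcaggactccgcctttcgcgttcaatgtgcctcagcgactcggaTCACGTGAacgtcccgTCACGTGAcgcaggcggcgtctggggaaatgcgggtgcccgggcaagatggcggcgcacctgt
Rab5a (GRCm38.p6, chr17:53478984-53479283, plus strand, longer motif from base 155): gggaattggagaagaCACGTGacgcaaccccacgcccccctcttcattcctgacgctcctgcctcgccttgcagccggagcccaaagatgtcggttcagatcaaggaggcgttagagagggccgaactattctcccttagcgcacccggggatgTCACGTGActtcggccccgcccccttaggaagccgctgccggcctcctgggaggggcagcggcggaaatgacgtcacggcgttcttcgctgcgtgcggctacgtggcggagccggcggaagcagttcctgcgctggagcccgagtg

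The group means of the E-box genes were compared with the spread between mice. Vps33a averaged between 1.34 (middle-aged CR) and 1.40 (young CR), Vps16 between 0.0880 (young AL) and 0.144 (old AL), and Vps26a, a cargo-binding subunit of retromer, between 0.313 (young CR) and 0.333 (juvenile AL). Atp6v0d1 ranged from 0.722 ± 0.134 (SD, n = 10) in middle-aged CR to 0.824 ± 0.233 (SD, n = 9) in young CR mice, and Atp6v1a, the catalytic subunit, from 0.0240 ± 0.137 (SD, n = 10) in middle-aged AL to 0.100 ± 0.168 (SD, n = 10) in young AL mice. In Vps16, Vps26a, Vps33a, Atp6v0d1, Atp6v1a and Rab5a the spread between mice of a group was wider than the distance between the group means. For Sec62 the means ran from 0.410 ± 0.0985 (SD, n = 10) in middle-aged AL to 0.501 ± 0.111 (SD, n = 10) in young AL mice. The SDs of both groups were wider than the distance between these means, and those of juvenile (0.0512) and young CR mice (0.0829) were narrower.

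**Figure D1:**
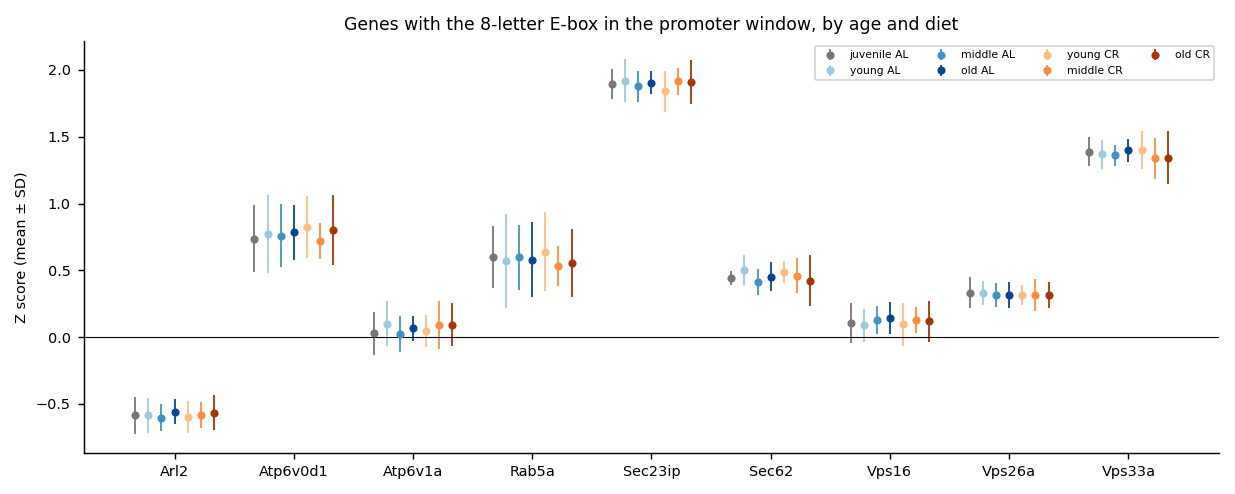
Mean Z score (points) and SD between mice (bars) of the 9 genes with TCACGTGA in the promoter window, in the 7 groups by age and diet (8 to 10 mice each). Groups are read within a gene, since levels of different genes are not comparable; for Vps26a the 7 means lay between 0.313 and 0.333.

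In the comparisons of age, diet and sex, no gene of vesicle traffic passed limma's test at an adjusted p of 0.05. In each of the 15 comparisons 0 of the 58 genes (57 with juveniles) were called, and 0% of all rows tested (3904 in adults, 3892 and 3893 with juveniles). The smallest adjusted p of any of the genes was 0.85, in young CR against young AL mice. Median differences over the tested genes ran from -0.0283 (middle-aged minus young, CR) to 0.0130 (young minus juvenile, AL), beside medians of -0.00875 to 0.00400 over all rows.

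An unadjusted limma p under 0.05 was found for few of the genes. In AL mice it was reached by 1 of 58 genes from young to middle age (Stx16), against 33 rows or 0.845% of all, by 0 from middle to old age (13 rows, 0.333%) and by 1 from young to old age (Vps35l, 12 rows, 0.307%). In CR mice it was reached by 1 gene from young to middle age (Rab6a, 85 rows, 2.18%), by 2 from middle to old age (Arfgef1 and Vps35l, 39 rows, 0.999%) and by 0 from young to old age (6 rows, 0.154%). The count from young to middle age in CR mice depended on single arrays: leaving out 1 array at a time gave 16 to 451 rows, the most without young CR female 4, an array of different profile, and leaving out all 8 such arrays gave 722 of 3915 rows and 9 of the genes, with 0 still passing the adjusted threshold. With both diets together Vps35l reached it from young to old (16 rows, 0.41%). No gene did so for CR against AL in young (19 rows, 0.487%), middle-aged (3 rows, 0.0768%), old (4 rows, 0.102%) or all adult mice (10 rows, 0.256%), for female against male (7 rows, 0.179%), or for the difference of the age effect between diets (7 rows, 0.179%). With juveniles the count was also 0, for young against juvenile (17 rows, 0.437%) and for late against early juvenile mice (32 rows, 0.822%). Several of these counts depended on single arrays too. Leaving out 1 array at a time gave 9 to 553 rows for late against early juvenile mice, with at most 3 of the genes. It gave 0 to 239 rows for young to old CR (at most 3 genes) and 5 to 197 for CR against AL in young mice (at most 2). For young against juvenile mice it gave 3 to 114 rows (at most 1 gene).

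The study's criterion was a Z ratio above 1.5 in size with an unadjusted p under 0.05. Here it was applied with the limma p and without the study's further two-way analysis of variance. Its picks could therefore only come from the genes with an unadjusted limma p under 0.05. In this form the criterion picked all of those genes. It picked Stx16 for middle-aged minus young AL (0.64% of all rows), Vps35l for old minus young AL (0.307%), Rab6a for middle-aged minus young CR (1.49%), Arfgef1 and Vps35l for old minus middle-aged CR (0.973%) and Vps35l for old minus young over both diets (0.41%). In the other 10 comparisons it picked 0 of the genes.

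**Figure D2:**
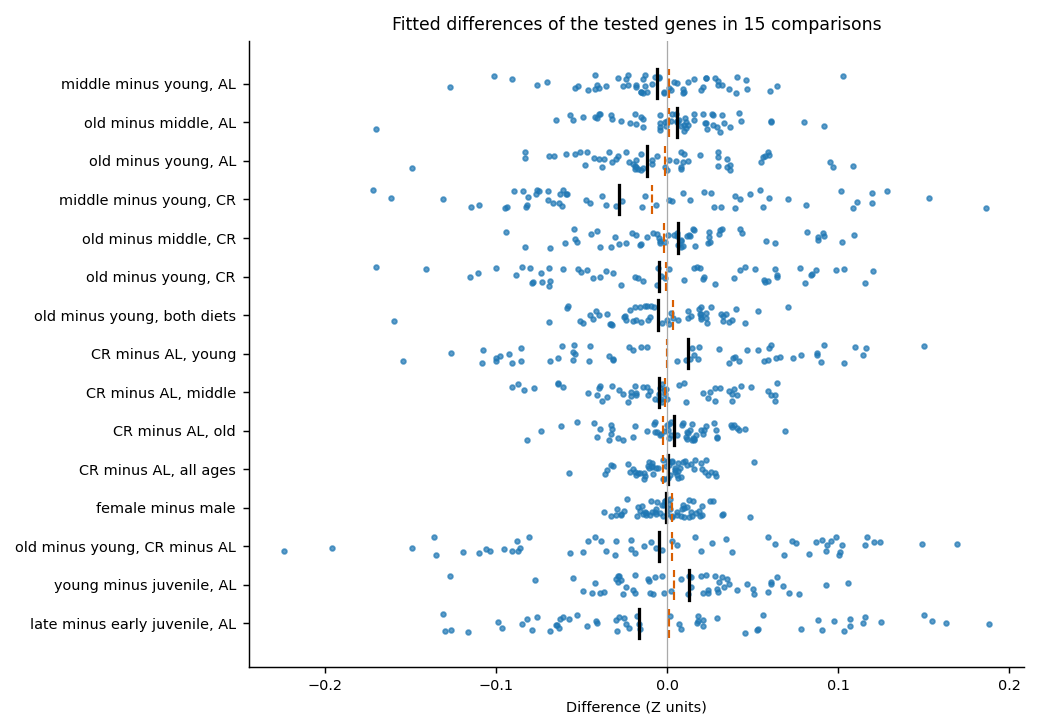
Fitted differences in Z units (points, 1 per tested gene) in the 15 comparisons, with the median of these genes (black line) and of all rows (dashed line). The medians of the genes lay between -0.0283 and 0.0130 Z, and 0 genes passed the adjusted threshold in any comparison.

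Vps35l, a subunit of the retriever complex that returns cargo from endosomes to the cell surface, reached the unadjusted threshold in 3 of the age comparisons. In AL mice its score was lowest at 0.340, median 0.440 and highest at 0.670 in the 10 young mice, 0.400, 0.555 and 0.630 in the 10 middle-aged mice, and 0.460, 0.570 and 0.700 in the 10 old mice. All 10 old AL mice were above the median of the young, although the ranges overlapped. The fitted difference from young to old was 0.0950 ± 0.0462 Z (SE), with a two-sided permutation p of 0.0329 for this gene alone. In CR mice the lowest, median and highest scores were 0.320, 0.560 and 0.660 when young (n = 9), 0.260, 0.515 and 0.590 in middle age (n = 10), and 0.400, 0.630 and 0.740 when old (n = 8). The old CR mice were above the middle-aged by 0.109 ± 0.0499 Z (SE), with overlapping ranges, and the exact permutation p was 0.0712 (0.0357 without the arrays of different profile). Over both diets the difference was 0.0704 ± 0.0345 Z (permutation p = 0.0348), and 13 of 18 old mice of both diets were above the median of the 19 young. These differences lost the unadjusted threshold under several alternatives, though not under all. Without the 2 columns that had been turned, the old minus young difference was 0.0838 Z in AL mice (limma unadjusted p = 0.0981) and 0.0648 Z over both diets (limma unadjusted p = 0.0775). A running-median correction for position on the filter gave 0.0760 Z in AL mice, 0.0407 Z over both diets and 0.0767 Z for old minus middle-aged CR mice, and limma fits of only the groups compared gave unadjusted p-values of 0.0510, 0.0617 and 0.0946 for the same comparisons. Leaving out the arrays of different profile moved the permutation tests in both directions. For old minus young AL mice the difference was 0.0928 Z (exact permutation test, two-sided, p = 0.0533, against 0.0329 with all arrays). For old minus middle-aged CR mice the exact permutation p fell from 0.0712 to 0.0357. A fit with array weights and all arrays, described below, called Vps35l for old minus middle-aged CR mice (0.109 Z). That call was lost in both other forms of the fit. Vps26c, another retriever subunit, and Vps29, shared by retriever and retromer, had mean scores below 0 and were not tested.

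Stx16, a syntaxin of the trans-Golgi network, was lower in middle-aged than in young AL mice. Its scores were -0.150, 0.140 and 0.310 (lowest, median, highest) in young, -0.140, 0.00500 and 0.130 in middle-aged and -0.0600, 0.100 and 0.280 in old AL mice. The 10 middle-aged mice all lay below the median of the young, within overlapping ranges. The difference was -0.127 ± 0.0524 Z (SE, permutation p = 0.0291) and was -0.101 Z (exact permutation p = 0.0814) once the arrays of different profile were left out, and from middle to old age Stx16 differed by 0.0800 ± 0.0524 Z. In CR mice its means were 0.0422 ± 0.103 (SD, n = 9) when young, -0.0290 ± 0.0970 (SD, n = 10) in middle age and 0.0563 ± 0.106 (SD, n = 8) when old.

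Arfgef1, the guanine nucleotide exchange factor BIG1 that activates Arf GTPases at the trans-Golgi, was higher in old than in middle-aged CR mice. Middle-aged CR mice had scores of 0.100, 0.240 and 0.330 (lowest, median, highest, n = 10) and old CR mice of 0.260, 0.310 and 0.390 (n = 8). All 8 old mice were above the median of the middle-aged, and the ranges overlapped between 0.260 and 0.330. The difference was 0.102 ± 0.0409 Z (SE; exact permutation test, two-sided, p = 0.00661) and was 0.0976 Z (exact p = 0.0163) without the arrays of different profile. In AL mice its means over the same interval were 0.268 ± 0.0722 (SD, n = 10) in middle-aged and 0.297 ± 0.0550 (SD, n = 10) in old mice, and a difference between the diets in this interval was not tested.

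Rab6a, a Rab of the Golgi, was lower in middle-aged than in young CR mice with a fitted difference of -0.131 ± 0.0647 Z (SE). Young CR mice spread widely, from 0.350 through a median of 0.730 to 0.990 (n = 9), and middle-aged CR mice lay between 0.460 and 0.610 around a median of 0.575 (n = 10). The range of the middle-aged mice lay inside that of the young (exact permutation test, two-sided, p = 0.0539).

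**Figure D3:**
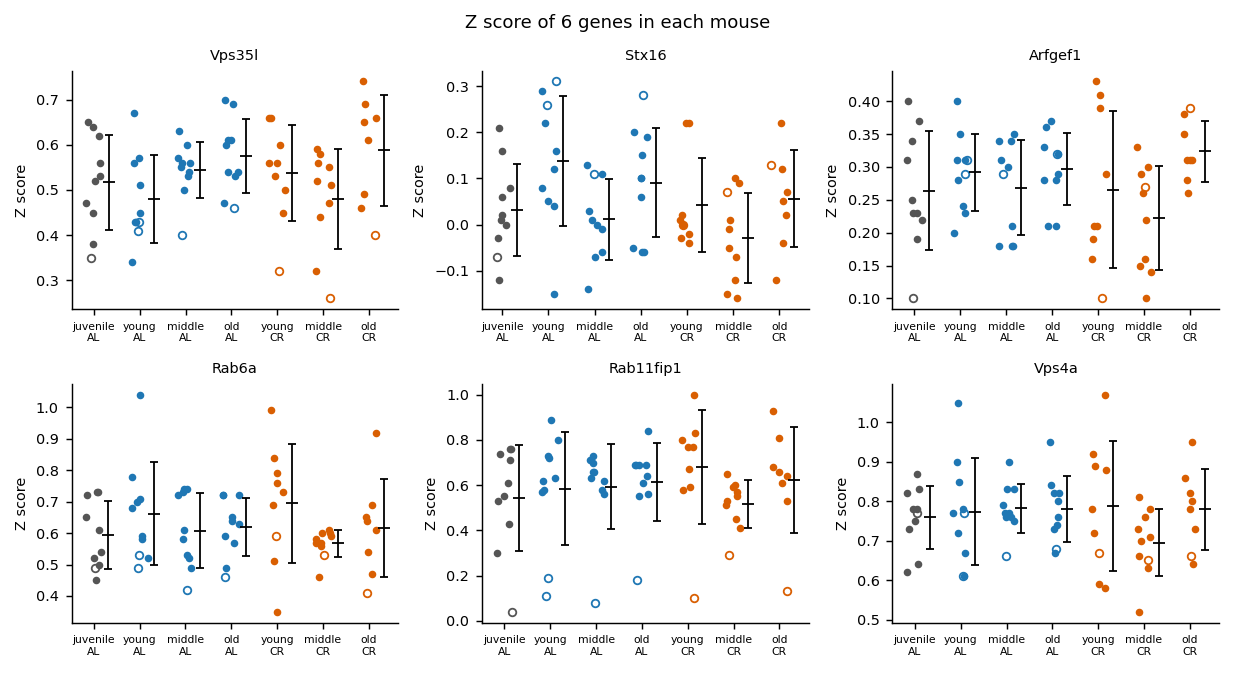
Z score of 6 genes in each of the 67 mice (points; open symbols are the 8 arrays of different profile), with the mean and SD of each group by age and diet. All 10 old AL mice were above the median of the young AL mice for Vps35l, and middle-aged CR mice lay in a narrow band for Rab6a (0.460 to 0.610).

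Aging in AL mice was also described by subfamily. From young to old AL mice 24 of the 58 genes were higher and 33 lower (41.4% higher, beside 49.4% of all rows). This split changed with the arrays and the scaling: without the arrays of different profile 30 were higher and 28 lower (51.7%, beside 52.8% of all rows), and with each array centred on its median 18 were higher and 40 lower (31.0%, beside 41.9%). All 4 tested syntaxins were lower, with a median of -0.0195 Z, as were 4 of 5 V-ATPase genes (median -0.0320 Z), whereas 6 of 12 Vps and 5 of 10 Rab genes were higher. Of the arrays of different profile, 2 were young AL and 1 old AL. The syntaxin mean was 0.202 in young and 0.179 in old AL mice, and 0.175 and 0.171 without those arrays. The V-ATPase mean was 0.332 and 0.308, and 0.367 and 0.328 without them. Snx3, a sorting nexin that works with retromer, was at 1.08 ± 0.0925 (SD, n = 10) in young and 0.999 ± 0.0835 (SD, n = 10) in old AL mice, a difference of -0.0830 ± 0.0428 Z (SE). Copg1, a COPI coat subunit, gave -0.0830 ± 0.0560 Z, and Rabl2, a Rab-like GTPase of cilia, -0.0690 ± 0.0606 Z. After Vps35l, the positive differences with the smallest unadjusted p were those of Rab22a, an endosomal Rab (0.0970 ± 0.0932 Z), and Vps16, a core subunit of HOPS and CORVET (0.0560 ± 0.0571 Z). By size alone the differences ran from -0.149 Z (Arl1) to 0.109 Z (Syt11), in genes with a wide spread between mice. None of these passed the test.

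From young to middle-aged AL mice 25 genes were higher and 33 lower, and from middle to old age 34 were higher and 24 lower. Sec62, a partner of the protein translocon of the endoplasmic reticulum, differed by -0.0910 ± 0.0588 Z and Rab3b, of the Rab3 group of regulated exocytosis, by -0.101 ± 0.0800 Z from young to middle age; Rab3b then differed by 0.0920 ± 0.0800 Z from middle to old age. Syt11, a synaptotagmin of neurons, was at 0.103 ± 0.136 Z in the first interval. Arl1, a GTPase that recruits golgins to the trans-Golgi, had the most negative difference from middle to old age, -0.170 ± 0.136 Z, and a wide spread between mice (pooled SD 0.315).

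In CR mice the step from young to middle age had the most negative median, -0.0283 Z beside -0.00875 Z over all rows, with 25 genes higher and 33 lower. Rab11fip1 and Rab11fip2, which encode effectors of Rab11 in recycling endosomes, differed in opposite directions. Rab11fip1 had scores of 0.100, 0.770 and 1.00 (lowest, median, highest) in young and 0.290, 0.540 and 0.650 in middle-aged CR mice, a difference of -0.172 ± 0.0941 Z (SE). Rab11fip2 had 0.0800, 0.370 and 0.530 in young and 0.190, 0.490 and 0.990 in middle-aged CR mice, a difference of 0.186 ± 0.104 Z. In the 8 arrays of different profile Rab11fip1 was lower (mean deviation -0.519 Z) and Rab11fip2 higher (0.473 Z) than in the other arrays of their groups, and the lowest Rab11fip1 scores without them were 0.580 and 0.410. Without those arrays all 9 middle-aged mice were below the median of the 8 young in Rab11fip1, with means of 0.540 ± 0.0752 and 0.751 ± 0.138 (SD; exact permutation test, two-sided, p = 0.00103, chosen after its value was seen), and the Rab11fip2 difference was 0.155 Z (exact p = 0.0592). Vps45, which pairs with syntaxins of the endosome, differed by 0.153 ± 0.0965 Z, Copa, the alpha subunit of COPI, by 0.129 ± 0.0916 Z, and Vps4a, the ATPase that takes ESCRT-III apart, by -0.0938 ± 0.0543 Z.

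The same step was the one in which a fit with array weights, which gives less weight to noisier arrays, called genes in each of its forms. It called 9 of 58 genes with all arrays, beside 16% of all rows, 12 without the arrays of different profile (21.3% of rows) and 10 without old CR male 2 (18.4% of rows). That array had taken a weight of 136, against 0.0801 to 3.92 for the other adult arrays, and limma warned that the estimate of the weights with all arrays had stopped before convergence, a warning it did not give for the other forms of the fit. In each form the share of the genes called was near that of all rows. The 9 genes were called in all 3 fits, which share most of their arrays. In the fit with all arrays Rab11fip1 (-0.228 Z), Rab6a (-0.155 Z), Atp6v0d1 (-0.165 Z), Atp6v1g1 (-0.100 Z), Copg2 (-0.109 Z), Rab22a (-0.145 Z) and Sec61g (-0.197 Z) were lower in middle-aged CR mice, and Copa (0.160 Z) and Rab3d (0.150 Z) higher. Calls under these weights in old CR against middle-aged CR (6 genes, 4.43% of rows), old CR against young CR (16 genes, 24.8%), old against young over both diets (1 gene, 1.84%), CR against AL in old mice (2 genes, 3.05%) and female against male (3 genes, 2.56%) fell to 0 genes in both other forms of the fit.

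From middle to old age in CR mice 33 genes were higher and 25 lower, and from young to old age 27 were higher and 31 lower. From young to old CR mice Copa differed by 0.120 ± 0.0986 Z, Sec23ip, a partner of the COPII coat, by 0.0869 ± 0.0675 Z, Atp6v1b2, the B subunit of the V-ATPase found in brain, by -0.0885 ± 0.0665 Z, Vps37c, of ESCRT-I, by -0.0848 ± 0.0704 Z and Rab9, which serves transport from late endosomes to the Golgi, by -0.0782 ± 0.0673 Z. None passed the test.

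Caloric restriction was compared with AL feeding at each adult age. In young mice 31 genes were higher and 27 lower in CR. Vps8, of CORVET, differed by 0.0735 ± 0.0525 Z, Snx3 by -0.0855 ± 0.0441 Z and Stx16 by -0.100 ± 0.0540 Z. Without the arrays of different profile the differences of means were smaller, at 0.0475 Z for Vps8, -0.041 Z for Snx3 and -0.054 Z for Stx16. In middle-aged mice 22 were higher and 36 lower (37.9% higher, beside 48.8% of all rows). Vps4a was at 0.660, 0.770 and 0.900 (lowest, median, highest) in middle-aged AL and at 0.520, 0.705 and 0.810 in middle-aged CR mice, with 8 of 10 CR mice below the AL median and overlapping ranges. Its fitted difference was -0.0870 ± 0.0526 Z (SE, limma unadjusted p = 0.105). A permutation test over these 20 mice alone gave p = 0.0166 (exact p = 0.00794 without the arrays of different profile). Such tests of single genes were run on 84 pairs of gene and comparison, each picked for a small limma p in these same data. Of the 84, 5 gave a p under 0.05 with all arrays and 6 without those of different profile. These p-values are not adjusted and are no independent test of the pairs. In old mice 35 were higher and 23 lower in CR (60.3%, beside 47.1% of all rows), with differences from -0.0817 (Rab27a, a Rab of secretory organelles) to 0.0690 Z (Arl1).

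Over all 57 adults the CR minus AL differences of the 58 genes lay between -0.0574 (Stx16) and 0.0508 Z (Arl1), with a median of 0.000347 Z, and 30 were higher and 28 lower. Stx16 had a mean of 0.0200 ± 0.105 (SD, n = 27) in CR and 0.0800 ± 0.126 (SD, n = 30) in AL mice, with 20 of 27 CR mice below the AL median (permutation p = 0.0570). Rab9 (0.0286 ± 0.0363 Z), Vps37c (0.0279 ± 0.0381 Z) and Sytl4, a Rab27 effector on secretory granules (0.0237 ± 0.0337 Z), had the smallest p among positive differences, and Atp6v0b, of the membrane part of the proton pump, was at -0.0349 ± 0.0471 Z.

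Females and males differed by -0.0369 (Snx3) to 0.0487 Z (Syt11), and none of the 58 genes passed the test. The age difference from young to old was compared between diets directly. The differences of the differences ran from -0.224 ± 0.202 Z (Syt11) to 0.169 ± 0.150 Z (Rab11fip2), with 28 above 0 and 30 below, and none passed; Snx3 gave 0.0988 ± 0.0639 Z and Copg1 0.101 ± 0.0836 Z.

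Maturation was followed in AL mice. From juvenile to young mice 32 of 57 genes were higher and 25 lower, with a median of 0.0130 Z beside 0.00400 Z over all rows. All 5 Arf regulators and effectors and all 4 Rab-like genes and Rab regulators were higher, with medians of 0.0230 and 0.0185 Z. Without the arrays of different profile the mean of the Arf regulators and effectors was 0.360 in juvenile and 0.357 in young mice. That of the Rab-like genes and Rab regulators was 0.515 in juvenile and 0.530 in young mice. Stx16 was at 0.0320 ± 0.100 (SD, n = 10) in juvenile and 0.138 ± 0.141 (SD, n = 10) in young mice, and the fitted 0.106 ± 0.0593 Z did not pass. Stx7, a syntaxin of late endosomes, differed by 0.0770 ± 0.0485 Z. Without the arrays of different profile the differences were 0.0579 Z for Stx16 and 0.0404 Z for Stx7. Within juveniles, the 5 mice of 33 to 44 days were compared with the 5 of 17 to 21 days. Atp6v1a had scores of -0.210, -0.0700 and 0.160 (lowest, median, highest) in the early and -0.0800, 0.150 and 0.230 in the late juveniles, a difference of 0.188 ± 0.0944 Z (SE). It was 0.148 Z with the run of title numbers (5 runs) as a block, 0.143 Z without the arrays of different profile and 0.0817 Z after position correction. Arfgef1 was at 0.210 ± 0.0758 (SD, n = 5) early and 0.318 ± 0.0746 (SD, n = 5) late, all 5 late mice being above the early median (exact permutation test, two-sided, p = 0.0556). Vps26a differed by -0.127 ± 0.0814 Z. Without the arrays of different profile the difference of means was -0.056 Z for Vps26a and 0.0805 Z for Arfgef1, beside -0.118 and 0.108 Z with all arrays. The ranges of these 3 genes overlapped between early and late juveniles.

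The mean over the genes of a subfamily was followed in every mouse. The mean of the 58 genes was between 0.560 ± 0.0163 (SD, n = 10, middle-aged CR) and 0.572 ± 0.0211 (SD, n = 10, young AL) in the 6 adult groups and 0.562 ± 0.0256 (SD, n = 10) in juveniles. The 12 Vps genes kept within 0.729 to 0.742 over the 7 groups and the 10 Rab GTPases within 0.650 to 0.672. The COPI mean was lowest in young CR mice, at 0.900, 0.95 and 0.983 (lowest, median, highest, n = 9), and was 0.930, 0.993 and 1.01 in young AL mice (n = 10), with overlapping ranges; this contrast of a subfamily was chosen after its values were seen and carries no test. The V-ATPase mean ranged from 0.295 ± 0.0540 (SD, n = 10, middle-aged CR) to 0.336 ± 0.140 (SD, n = 9, young CR). The sorting nexin mean ranged from 0.687 ± 0.0660 (SD, n = 8, old CR) to 0.722 ± 0.0341 (SD, n = 10, young AL).

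**Figure D4:**
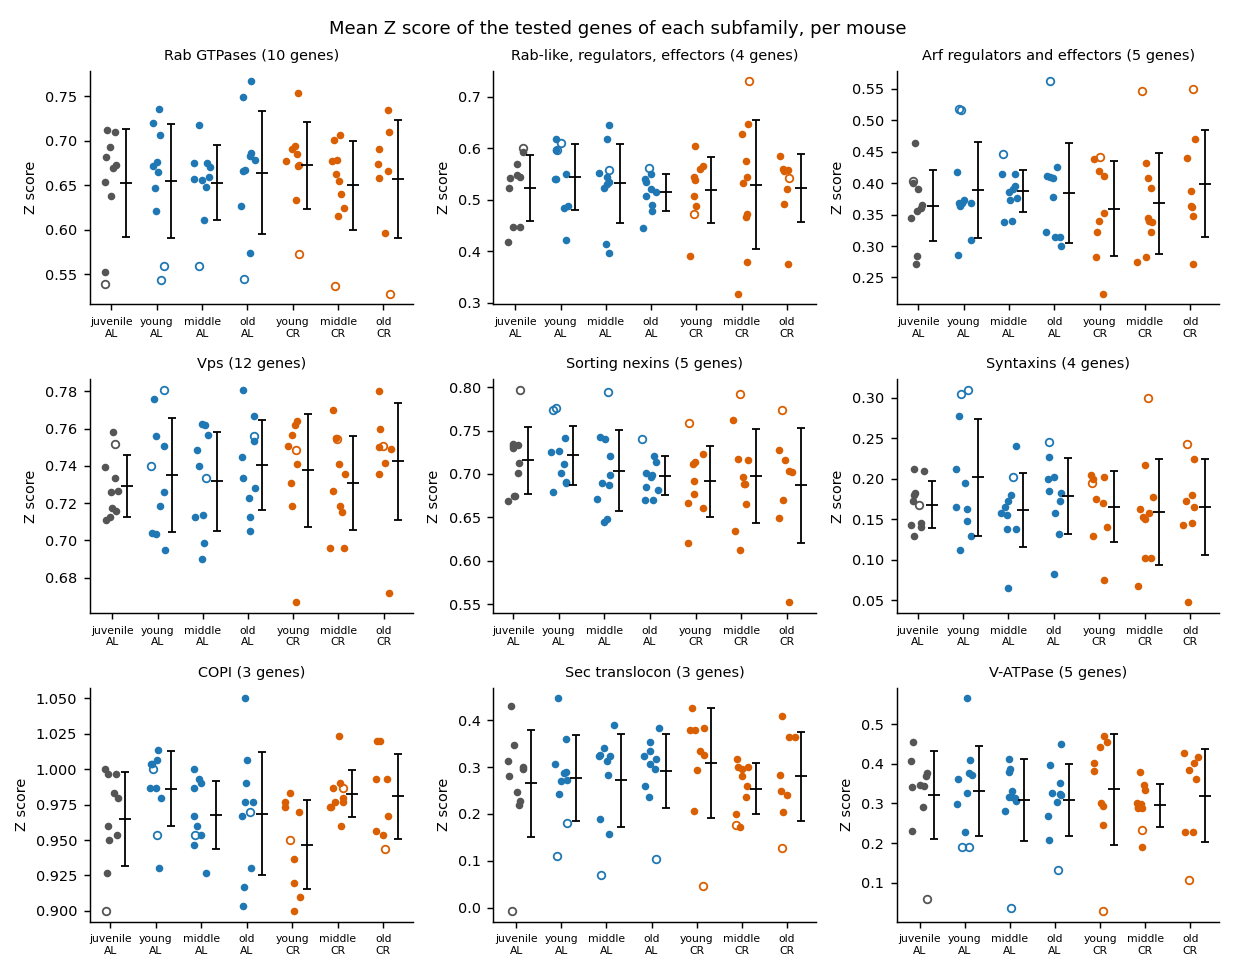
Mean Z score of the tested genes of 9 subfamilies in each mouse (points; open symbols are the 8 arrays of different profile), with the group mean and SD, by age and diet. The Vps group means lay between 0.729 and 0.742, and the COPI mean of young CR mice was 0.947.

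With 1 filter a mouse, spread between mice and spread between arrays cannot be told apart. The pooled SD between mice of a group was 0.0768 to 0.315 Z over the 58 genes, with a median of 0.162, and a median of 0.118 without the 8 arrays of different profile. In those 8 arrays 19 of the 58 genes were higher in all 8 than the mean of the other arrays of their own age, diet and sex, and 25 were lower in all 8. The same counts were not taken over all rows. As these arrays were set apart by their profile over all features, the counts do not mark out these genes. Syt11 deviated by -0.902 to -0.657 Z (mean -0.788 Z), Rab27a had a mean deviation of -0.693 Z, Rab5a of -0.685 Z, Sec61g, of the translocon, of -0.640 Z, Atp6v0d1 of -0.624 Z and Ap2s1, the small subunit of the endocytic adaptor AP-2, of -0.584 Z. In the other direction Vps72 had a mean deviation of 0.653 Z, Stx17, a syntaxin of autophagosomes, of 0.588 Z, Snx21 of 0.532 Z, Vps35, the scaffold of retromer, of 0.502 Z, and Arfgap2 and Arfgap1, GTPase-activating proteins of Arf, of 0.496 and 0.486 Z. Of retromer, Vps35 and Vps26a (0.206 Z) were both higher in all 8 arrays, whereas of HOPS Vps39 was higher (0.264 Z) and Vps16 lower (-0.241 Z) in all 8. Arfgef1 (-0.0322 Z), Snx3 (0.0553 Z) and Stx16 (0.0778 Z) had small mean deviations, but the single arrays lay on both sides of 0. They ran from -0.26 to 0.095 Z for Arfgef1, from -0.235 to 0.155 Z for Snx3 and from -0.17 to 0.235 Z for Stx16. Fitted differences between adult groups of different age or diet lay between -0.172 and 0.186 Z for the same 58 genes.

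**Figure D5:**
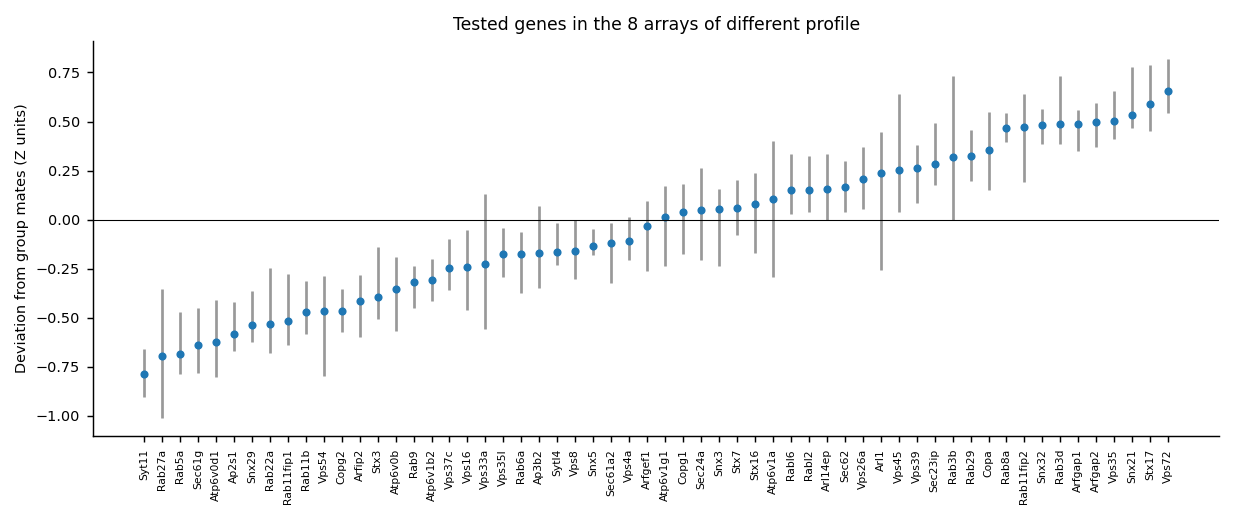
Deviation in Z units of the 58 tested genes in the 8 arrays of different profile from the other arrays of the same age, diet and sex (points, mean; bars, lowest to highest of the 8). 25 genes, led by Syt11, were below 0 in all 8 arrays and 19, led by Vps72, above 0 in all 8. The same counts were not taken over all rows.

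Of the genes, 9 were read by 2 features each, and the features of a gene did not always give the same sign. Of these 9 genes 4 had features on both sides of a score of 0: Atp6v1b2 (-0.253 and 0.673), Rab11a (0.465 and -0.576), Rab12 (0.0791 and -1.13) and Snx8 (0.368 and -0.600), by mean score in adults. The 2 features of Rab11b were alike (1.05 and 1.02), with old minus young AL differences of 0.0360 and 0.0830 Z. The sign of the old minus young difference was the same in both features for 4 of the 9 genes in AL and for 3 of the 9 in CR mice.

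Other genes of the pathway, outside the symbols used, were followed with a list of 126, of which 53 were on the array with a single symbol and 21 were tested. They included Cltc, the clathrin heavy chain (mean score in adults 0.458), Sv2a of synaptic vesicles (1.08), Synj1, the phosphatase that uncoats them (0.160), and Gdi2, which extracts Rabs from membranes (0.340). None passed the adjusted test in any comparison; Exoc8, of the exocyst tether, was the single gene with an unadjusted p under 0.05, in old minus middle-aged CR (0.136 ± 0.0611 Z) and in young minus juvenile AL mice (0.113 ± 0.0499 Z). From young to old AL 14 of the 21 were higher and 7 lower (median 0.00900 Z), and from young to middle-aged CR 7 were higher and 14 lower (median -0.0450 Z).

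Few markers of cell types were on the array. The list means over the 7 groups were 0.171 to 0.3 for striatal neurons (3 genes), -0.176 to -0.0702 for astrocytes (3), 0.196 to 0.268 for microglia (3) and -0.165 to -0.0960 for blood (3); no gene of the lists for cortical neurons, oligodendrocytes, endothelium and choroid plexus was on the array with a single symbol. Cst3, abundant in astrocytes, was higher in old than in young AL mice by 0.277 ± 0.0943 Z, in the comparison in which Vps35l differed, and C1qc of microglia in old than in middle-aged CR mice by 0.0933 ± 0.0413 Z, beside Arfgef1 and Vps35l. The striatal mean was 0.198 in young AL and 0.3 in young CR mice. Ppp1r1b (0.438 and 0.639) and Rasd2 (0.099 and 0.231) were higher in young CR mice, and Arpp19 (0.0575 and 0.0306) was lower. Rasd2 had an unadjusted limma p under 0.05 for CR against AL in young mice (0.130 ± 0.0537 Z) and in all adults (0.0642 ± 0.0312 Z). Of the other astrocyte genes, Clu had a mean score of -0.639 in young and -0.668 in old AL mice, and Slc1a3 of -0.432 and -0.394. Cst3, C1qc and Rasd2 did not pass the adjusted test, and the part of these markers in the differences of the vesicle traffic genes was not tested.

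The precision of the differences sets what could be seen. The half-width of the 95% interval in old minus young AL mice was 0.0762 (Arfgef1) to 0.272 Z (Syt11), with a median of 0.144, and for 55 of the 58 genes the interval lay within 0.3 Z of 0. For CR minus AL over all adults it was 0.0456 to 0.163 Z, and 57 of 58 intervals lay within 0.2 Z of 0. Between early and late juveniles, with 5 mice each, 31 of 57 intervals lay within 0.3 Z of 0 and 7 within 0.2 Z.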

How the data were processed

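RNA of each striatum was hybridised as radiolabelled cDNA to a nylon filter, scanned from a phosphor screen and extracted with ArrayPro. The authors deposited Z scores, with mean 0 and SD 1 over the 8448 features of each array; log base and background treatment are not given in the sources used here. The columns with title numbers 66 and 67 were turned end to end. Features with the same single symbol in the probe-to-gene table were averaged, and rows with a mean score above 0 were tested with limma 3.58.1 in R 4.3.3 (group means by age, diet and sex, contrasts averaged over sexes, Benjamini-Hochberg over all rows, threshold 0.05; late against early juveniles had sex as a term). Single genes had two-sided permutation tests (exact, or 100000 permutations), run in Python 3.11.15 with NumPy 2.4.6 and pandas 2.3.3. Genes named were those called, the 3 with the smallest unadjusted p in each direction and comparison, textbook members and genes with 2 features. The members and lists were chosen with earlier results of these data known. The fit was tested on simulated data. Alternatives were array weights, leaving out or modelling the 8 arrays of different profile, the order of the 2 columns, centring, quantile scaling, a running median over 101 neighbouring features, the filter, the averaging, title run as a block, only the groups compared, each array left out, and the methods' rule. Replicates are separate mice; the number of arrays limits the precision. The authors' comparisons were not used.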

Additional observations from a re-analysis of the deposited data

Results flagged for a closer look

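In 133 groups of 8 to 10 mice (19 genes or subfamily means in 7 groups), 25 held a highest or lowest mouse set apart from the others by a gap large for the range of its group. Chance gives this in about 1 in 20 groups. Of the 25, 18 were arrays of different profile.

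The AP adaptor mean was set apart on 6 of those arrays: -0.03 in juvenile AL male 3, -0.13 in middle-aged AL female 2, 0.08 in old AL male 4, 0.06 in young CR female 4, 0.0 in middle-aged CR male 3 and 0.045 in old CR male 3. Low V-ATPase V0 means set apart on such arrays were 0.175 in middle-aged AL female 2, 0.13 in young CR female 4 and 0.255 in middle-aged CR male 3. The V1 mean was set apart at -0.06 in juvenile AL male 3, and the mean of all V-ATPase genes at 0.037 in middle-aged AL female 2. The V1 part was not low on all 8 arrays of different profile. Atp6v1a and Atp6v1g1 were each higher than the other arrays of their groups in 5 of the 8, and Atp6v1b2 was lower in all 8. Low synaptotagmin means were those of old AL male 4 (0.0) and middle-aged CR male 3 (-0.08), and low Sec translocon means those of juvenile AL male 3 (-0.00667) and old AL male 4 (0.103). High means on arrays of different profile were 0.562 for Arf regulators and effectors in old AL male 4, 0.797 for sorting nexins in juvenile AL male 3 and 1.365 for COPII and Sec22 in middle-aged AL female 2.

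On other arrays Rab6a was 0.46 in middle-aged CR female 5, the Vps mean was 0.667 in young CR female 5 and 0.672 in old CR female 4, the mean of Rab-like genes and Rab regulators was 0.375 in old CR female 4, the COPI mean was 1.023 in middle-aged CR male 2 and the V1 mean was 0.237 in old AL male 3. Rab6a was 1.04 in young AL male 1.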

How the results depend on the processing

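In no setting other than array weights and the methods' rule was any of the genes called in any of the 15 comparisons. With array weights the genes called numbered 9 for middle minus young CR, 6 for old minus middle CR, 16 for old minus young CR, 1 for old minus young both diets, 2 for CR minus AL old and 3 for female minus male; for middle minus young CR they numbered 12 (21.3% of rows) without the arrays of different profile and 10 (18.4%) without old CR male replicate 2, both settings added after seeing the data. The methods' rule picked 1 for middle minus young AL, 1 for old minus young AL, 1 for middle minus young CR, 2 for old minus middle CR and 1 for old minus young both diets. With the 2 columns in their deposited order the median difference of the genes was -0.116 Z for old minus middle AL, -0.124 Z for old minus young AL, 0.107 Z for CR minus AL old and 0.0948 Z for old minus young CR minus AL. In that order the sign turned for old minus middle AL (Snx3 0.244), old minus young AL (Vps35l -0.0320, Snx3 0.203), old minus young both diets (Sec23ip -0.202), CR minus AL old (Arfgef1 -0.228, Vps33a 0.101, Rab27a 0.443), CR minus AL all ages (Rab9 -0.0167), old minus young CR minus AL (Snx3 -0.187, Vps33a 0.0592) Z. With array weights the sign turned for middle minus young AL (Syt11 -0.0499), old minus middle CR (Snx32 0.0375), CR minus AL young (Stx16 0.00154), CR minus AL old (Vps33a 0.00232), CR minus AL all ages (Rab9 -0.00182, Sytl4 -0.00268, Atp6v0b 0.0303), female minus male (Snx3 0.00374) Z. With weights and without the arrays of different profile the sign turned for middle minus young AL (Syt11 -0.0746), CR minus AL young (Stx16 0.0245, Rab11fip2 0.0101), CR minus AL old (Vps33a 0.00690, Stx16 0.00900), CR minus AL all ages (Atp6v0b 0.0267), female minus male (Atp6v1g1 0.00120), old minus young CR minus AL (Rab11fip2 -0.0625), young minus juvenile AL (Stx16 -0.0135) Z. With weights and without old CR male replicate 2 the sign turned for middle minus young AL (Syt11 -0.0497), CR minus AL old (Stx16 0.0508), CR minus AL all ages (Rab9 -0.000499, Sytl4 -0.00891, Snx3 0.0121), female minus male (Atp6v1g1 0.0194), old minus young CR minus AL (Rab11fip2 -0.00503) Z. Without the arrays of different profile the sign turned for CR minus AL old (Vps33a 0.00925) Z. Leaving out each of the 57 adult arrays in turn, Arl14ep (old minus middle CR) ranged from -0.108 to 0.00650 Z, Rab11fip2 (old minus middle CR) ranged from -0.155 to 0.0295 Z, Snx32 (old minus middle CR) ranged from -0.152 to 0.05 Z, Sec23ip (old minus young both diets) ranged from -0.00438 to 0.0656 Z, Vps33a (CR minus AL old) ranged from -0.112 to 0.0305 Z and Rab27a (CR minus AL old) ranged from -0.143 to 0.0225 Z, each turning its sign without old CR male replicate 1 or 3. Of the 90 named differences 66 kept their sign in every setting, and the cause of the others' turning was not tested. The array weights of the fit with all adult arrays stopped before convergence, with a weight of 136 for old CR male replicate 2. No paired analysis was possible because the replicate numbers were given in accession order and pair no mice across groups. The title numbers fall into 5 runs, and with the run as a block term limma called 0 genes, while rows under an unadjusted p of 0.05 went from 19 to 64 for CR minus AL young (Snx3 and Stx16 among them), from 17 to 184 for young minus juvenile and from 32 to 3 for late minus early juvenile.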
